A study of Mus musculus with 6 samples.

Results

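The PNMA capsid-derived gene family was followed through RNA sequenced from immunoprecipitates of the protein PNMA4 (encoded in mouse by Moap1). The members were the genes whose symbol in the count table equalled Moap1, Pnma1, Pnma2, Pnma5, Pnma8a, Pnma8b or Ccdc8, which gave 7 of 57010 genes. Members were matched by symbol and not by a cut on counts, but the list was chosen with earlier results of these data known. All 7 had reads in the immunoprecipitates, and all 7 were among the 13413 genes that passed a filter on low counts. Moap1 passed that filter through its wild-type libraries, since it had no reads in the others.

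There were 3 wild-type (C57BL/6J) libraries and 3 libraries lacking PNMA4, which served as controls of the immunoprecipitation. Among the controls, replicates 1 and 2 came from Pnma4 knockout mice (Pnma4-/-) and replicate 3 from a Pnma1-/- Pnma4-/- double knockout, so the double knockout is 1 library. Each library was made from a lysate of 8 pooled testes of mice aged 3 months, after the dense material had been collected on a sucrose cushion and separated by density in iodixanol, and all were precipitated with the same PNMA4 antibody. RNA from before the immunoprecipitation was not analysed here. Levels therefore describe what was on the beads, not enrichment over testis. As the starting material is whole testis, fewer cells of a type and less RNA per cell cannot be told apart.

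PNMA genes descend from the gag gene of a long terminal repeat retrotransposon, the gene that encodes the capsid of such elements, and were taken over by mammalian genomes. Several gag-derived proteins can still assemble into particles, and some of these carry RNA, which may include the message that encodes them. PNMA1 and PNMA2 are known as antigens of paraneoplastic neurological disease. MOAP1 (PNMA4) is known as a modulator of apoptosis that binds BAX, and CCDC8 is a subunit of the 3M complex with CUL7 and OBSL1.

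Total counts per library ran from 3138657 to 6367930, and levels are given in CPM, the read count scaled to a common library size with TMM normalisation (factors 0.628 to 1.29). Testis RNA was present as labelled. Spermatid markers summed to 1659 to 2446 CPM in wild-type libraries, against 1998 to 2036 CPM in controls, and spermatocyte markers to 925 to 1217 CPM, against 816 to 1055 CPM. The double knockout library stood apart, with 57.5% of its counts in the 18S ribosomal RNA-related gene Rn18s-rs5 against 27.3% to 36.1% in the other 5 libraries. Its Leydig cell markers summed to 417 CPM against 159 to 208 CPM in the other 5, and its Sertoli cell markers to 292 CPM against 138 to 209 CPM. Of the Sertoli sums, the gene Clu alone gave 190 CPM in the double knockout and 62.8 to 132 CPM in the other 5. Wild-type replicate 2 differed as well, with 0.751% of its counts in the gene Lars2 against 4.34% to 10.8% in the other 5 libraries. No marker of the cell type lists was lower or higher past the threshold in either comparison.

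In the RefSeq gene table of GRCm38.p6, 6 of the 7 members were found. Moap1 (ENSMUSG00000096458) spans chromosome 12 from 102739830 to 102743661 and Pnma1 (ENSMUSG00000054383) lies on the same chromosome from 84146131 to 84148489, 18.6 Mb away. Pnma2 (ENSMUSG00000046204) spans chromosome 14 from 66901589 to 66920063 and Pnma5 (ENSMUSG00000050424) the X chromosome from 73033981 to 73039721. Pnma8a (ENSMUSG00000041141) spans chromosome 7 from 16949950 to 16964607, with Ccdc8 (ENSMUSG00000041117) 29.3 kb away on the same chromosome, from 16993902 to 16997515. Pnma8b (ENSMUSG00000070802) was not matched by symbol. Overlaps limit which gene a read belongs to. Moap1 lies wholly inside Gm20604, a predicted gene on chromosome 12 from 102739830 to 102757810, Pnma2 overlaps Dpysl2, and Pnma5 overlaps the noncoding gene Gm52421. The sources used here do not say if counting by the authors used strand or dropped reads that hit several genes.

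The regions around the transcript starts of the deleted genes and of Gm20604 are shown because they differed across genotypes: Moap1 and Pnma1 had no reads where they were deleted, while Gm20604 had fewer reads in the controls but was not at 0. Each has 250 bases before the annotated start and 50 after it, 5′ to 3′ on the transcribed minus strand, from RefSeq on GRCm38.p6. Moap1 is at chr12:102743612-102743911, Gm20604 at chr12:102757761-102758060 and Pnma1 at chr12:84148440-84148739. Capitals mark CGTCA, the core of a cAMP response element, or CCAAT, on either strand.
Moap1: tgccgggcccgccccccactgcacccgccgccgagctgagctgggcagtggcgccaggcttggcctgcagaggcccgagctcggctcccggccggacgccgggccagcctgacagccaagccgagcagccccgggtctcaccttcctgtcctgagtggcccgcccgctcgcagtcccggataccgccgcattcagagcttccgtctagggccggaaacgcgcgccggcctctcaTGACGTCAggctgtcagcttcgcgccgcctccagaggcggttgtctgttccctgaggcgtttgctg
Gm20604: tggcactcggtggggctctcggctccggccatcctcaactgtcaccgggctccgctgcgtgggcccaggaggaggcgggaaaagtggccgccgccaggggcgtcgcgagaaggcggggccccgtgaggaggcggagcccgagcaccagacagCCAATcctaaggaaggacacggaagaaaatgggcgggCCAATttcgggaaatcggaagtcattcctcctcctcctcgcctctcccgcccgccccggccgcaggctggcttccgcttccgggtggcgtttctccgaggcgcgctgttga
Pnma1: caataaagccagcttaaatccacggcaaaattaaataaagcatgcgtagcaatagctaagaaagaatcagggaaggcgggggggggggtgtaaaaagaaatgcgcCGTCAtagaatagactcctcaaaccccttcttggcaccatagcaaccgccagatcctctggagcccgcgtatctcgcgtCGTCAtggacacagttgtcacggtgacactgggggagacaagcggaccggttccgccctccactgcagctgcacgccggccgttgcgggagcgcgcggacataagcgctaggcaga

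The start of Gm20604 lies 14.1 kb upstream of that of Moap1 and has the same sequence as the start of Gon7, a gene for a subunit of the KEOPS complex, so Gm20604 begins where Gon7 begins and ends where Moap1 ends. On the other side, the start of Moap1 faces that of Tmem251 across 57 bases. Of 6 motifs searched on both strands, the whole palindrome TGACGTCA occurred in the Moap1 sequence 16 bases before the start, and in 1.88% of 27018 RefSeq promoters of this length. Its core CGTCA occurred at 2 sites in Moap1 (both within that palindrome, which is also in the facing sequence of Tmem251), at 2 sites in Pnma1 and at 1 site in Ccdc8, and in 21% of promoters. CCAAT occurred at 2 sites in Gm20604 and 1 in Pnma5, and in 37.9% of promoters. Of the other motifs, GGGCGG was in 35.9% of promoters, AACNG in 80.4% and TATAAA in 14.2%, and TATAAA was in none of the sequences of Moap1, Pnma1, Pnma5, Ccdc8 and Gm20604. The sequences also differed in CG dinucleotides, with 32 in Moap1, 23 in Pnma1, 7 in Ccdc8 and 1 in Pnma5, and 90.8%, 78.4%, 47.7% and 5.77% of promoters held fewer. These are matches of letters and do not show that a factor binds. Pnma2, Pnma8a and Pnma8b had no match in the promoter table by symbol.

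Moap1, the gene of the precipitated protein, had few reads assigned to it in wild type and none in the controls. It had 7, 26 and 27 counts in wild-type replicates 1 to 3, which is 1.84, 3.33 and 4.15 CPM, and 0 counts in each of the 3 libraries lacking PNMA4. The groups did not overlap, as the deletion fixes. At 3 counts over the combined controls, the floor was 0.228 CPM. The wild-type mean of Moap1 was 13.6-fold over this floor, a ratio that leaves out the spread of wild type. The test of wild type against controls, whose outcome the deletion fixes, is a separate value (edgeR adjusted p = 0.0023, quasi-likelihood test with Benjamini-Hochberg adjustment over 13413 genes). Without wild-type replicate 2 or 3 Moap1 fell below the filter and was not tested. Reads assigned to Moap1 thus averaged 3.10 ± 1.17 CPM in wild type (SD, n = 3). As Moap1 lies inside Gm20604, this may not be the whole level of its message. With no library that holds the antigen and lacks its gene, recovery with PNMA4 cannot be told apart from general carry-over of testis RNA.

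**Figure D1:**
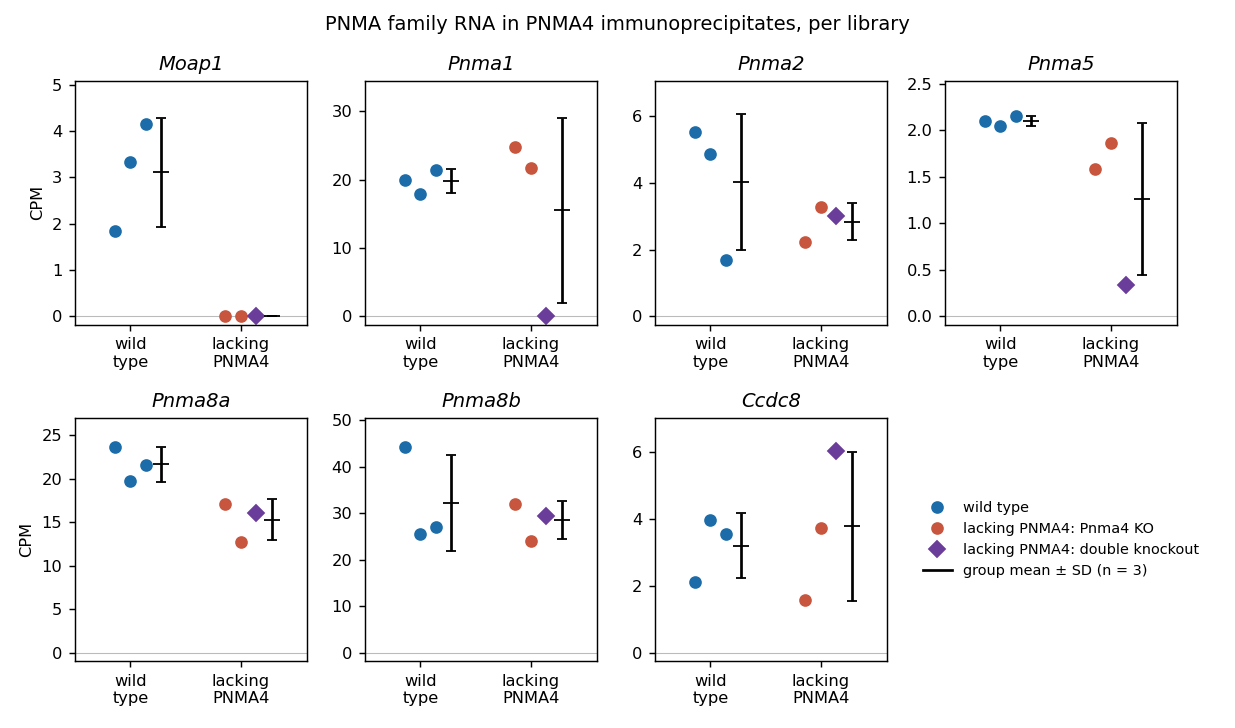
Level of each of the 7 family members in CPM (vertical axis, linear, own scale per panel) for the 3 wild-type libraries and the 3 lacking PNMA4, with the double knockout as a diamond and the group mean ± SD beside the points. Moap1 is at 0 in all controls and Pnma1 at 0 in the double knockout, while the other panels overlap between groups except Pnma5 and Pnma8a.

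Reads assigned to Gm20604 differed in the same direction as those of Moap1, and their counts, which are not per length, were higher. Gm20604 gave 146, 246 and 238 counts in wild-type libraries, against 46, 70 and 42 in controls, which averages 35.5 ± 3.58 CPM and 12.9 ± 2.51 CPM (SD, n = 3 each). Every wild-type library lay above every control (2.80-fold, 95% interval 1.99 to 3.94, edgeR adjusted p = 0.00344). Of all genes tested, 3.28% were wholly above the controls in wild type. Moap1, deleted in every control, lies inside Gm20604, so this call may follow from the deletion, which was not tested. The wild-type mean exceeded the control mean by 22.6 CPM for Gm20604 and by 3.10 CPM for Moap1. Of the counts of both genes together, Moap1 held 8.11% ± 3.08 in wild type (SD, n = 3). The sum of both averaged 38.6 ± 3.28 CPM in wild type (SD, n = 3). Because the span of Moap1 lies inside that of Gm20604, the Moap1 row alone may not hold all reads of the deleted gene. How the reads were split was not tested.

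Tmem251 and Gon7, which do not overlap Moap1, had levels that overlapped between groups. Their spans lie inside that of Gm20604, so which gene a read belongs to is limited for them too. Tmem251, a gene of lysosomal function whose start faces that of Moap1, gave 9, 16 and 18 counts in the wild-type libraries, against 4, 22 and 7 in the controls. Its levels overlapped between groups (0.994-fold, 95% interval 0.55 to 1.80, edgeR adjusted p = 1.00). Gon7, named here after its counts were seen because Gm20604 shares its start, gave 5, 5 and 20 counts in wild-type libraries, against 3, 19 and 3 in controls, and was below the filter.

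**Figure D2:**
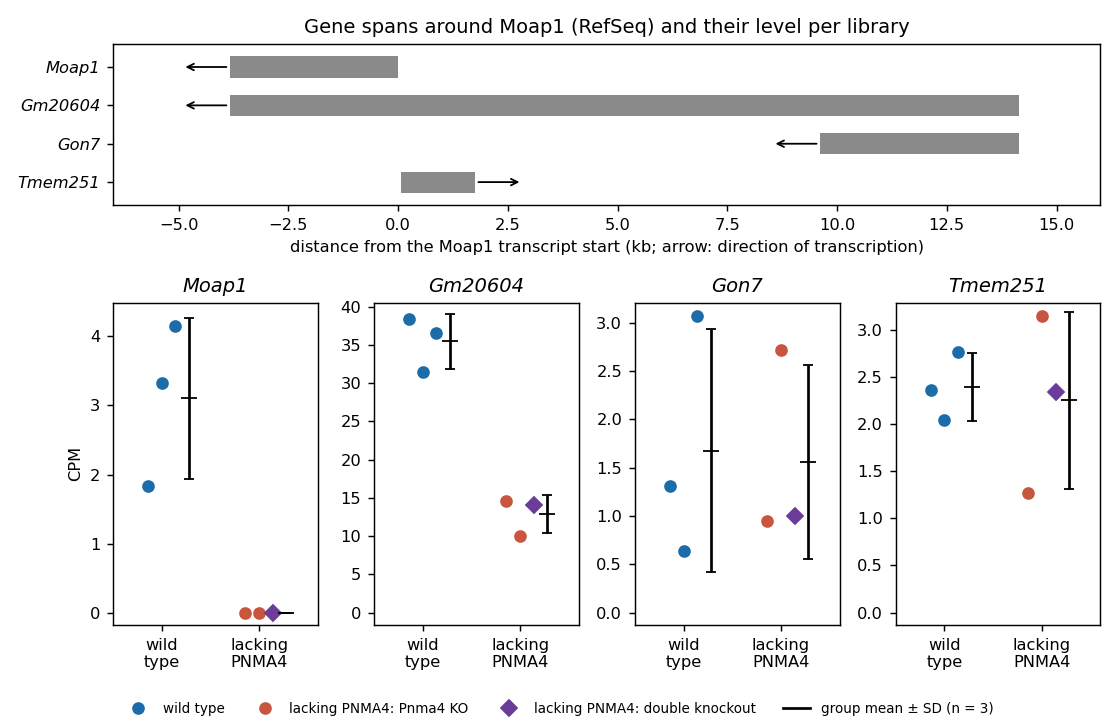
Top, gene spans around Moap1 by distance from its transcript start in kb, with arrows for the direction of transcription; bottom, CPM of each gene per library (linear axes, mean ± SD beside the points). Wild-type libraries are above all controls for Moap1 and Gm20604, and the groups overlap for Gon7 and Tmem251.

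Pnma1, the partner gene of the double knockout, was recovered with and without PNMA4, with a difference under 2-fold where the gene was present. It had 20.0, 17.9 and 21.4 CPM in wild type and 24.8 and 21.7 CPM in the 2 Pnma4 knockout libraries. Both knockout libraries lay above all wild-type libraries, at the nearest 21.7 against 21.4 CPM, and the share of all genes that do so was not counted. Without the double knockout library, which carries no Pnma1 gene, wild type over Pnma4 knockout was 0.852-fold, with a 95% interval of 0.591 to 1.23 that leaves out a 2-fold difference either way (edgeR adjusted p = 0.999). With that library in, the fitted value was 1.23-fold (interval 0.626 to 2.42, adjusted p = 1.00), so the direction differs with and without the library that lacks the gene.

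In the double knockout Pnma1 had 0 counts, against 78 and 152 counts in the Pnma4 knockouts. Its floor there was 1.00 CPM. The Pnma4 knockout mean of 23.2 CPM was 23.2-fold over this floor, a ratio that leaves out the spread of the Pnma4 knockouts. The neighbours of Pnma1 were not lost with it. Mideas, whose span ends 678 bases from that of Pnma1, had 14 counts in the double knockout and 12 and 34 in the Pnma4 knockouts. Dnal1, an axonemal dynein light chain gene 2.61 kb away on the other side, had 59 counts, against 84 and 177. Relative to the Pnma4 knockouts these were 1.06-fold (95% interval 0.468 to 2.38) and 0.761-fold (0.439 to 1.32), with an edgeR adjusted p of 1.00 and 0.995.

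Of the 5 members that no genotype deletes, none passed the test between wild type and controls. Of all genes tested 0.0596% passed (8 of 13413), 0.0224% higher and 0.0373% lower in wild type. The 3 higher in wild type were Moap1, Rps6ka4 and Gm20604, whose span holds that of Moap1. Moap1 was the 1 of the 7 members among all genes that passed. Its call is fixed by its deletion and says nothing about the other members. The 5 had log2 fold changes from −0.18 to 0.59 with a median of 0.43, and 4 were positive, beside a median of 0.01 and 52% positive over all genes. Intervals of Pnma8a and Pnma8b lay within a 2-fold difference either way, as did those of 71.1% of genes. At an unadjusted p under 0.05 the edgeR fit held 392 genes, of which Pnma8a and Moap1 were the family's. In DESeq2 7 genes passed, Moap1 among them.

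Pnma8a, also called Pnmal1, was the 1 member of these 5 whose 95% interval left out 0. It stood at 23.7, 19.7 and 21.5 CPM in wild type, against 17.1, 12.7 and 16.1 CPM in the controls. The groups did not overlap. Of the 5 members not deleted, wild type was wholly above the controls for Pnma5 and Pnma8a, and wholly below for 0. Over all genes tested the shares were 3.28% above and 3.41% below. Moap1 is left out of this count, since its deletion fixes the outcome. For Pnma8a the fit gave 1.43-fold, with a 95% interval of 1.02 to 2.00 (log2 fold change 0.51, standard error 0.24, unadjusted p = 0.0403), and did not pass after adjustment (edgeR adjusted p = 1.00). With 1 library left out the log2 fold change lay between 0.37 and 0.60, so its direction did not rest on a single library. Its interval included 0 without wild-type replicate 1 (−0.11 to 0.99), without Pnma4 knockout replicate 2 (−0.21 to 0.96) and without the double knockout (−0.01 to 1.11). Without scaling factors it was 0.82, where the median of all genes was 0.31. Gm25815, a small nuclear RNA gene inside Pnma8a, had 2 counts in wild-type replicate 3, 2 in the double knockout and 0 in the other libraries.

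Pnma8b, which like Pnma8a is a little-characterised member, was higher in wild-type replicate 1 than elsewhere. It had 44.2, 25.5 and 27.0 CPM in wild type and 32.1, 24.1 and 29.4 CPM without PNMA4. The other wild-type libraries lay within the range of the controls. The fit gave 1.12-fold (95% interval 0.798 to 1.58, edgeR adjusted p = 1.00), an interval that leaves out a 2-fold difference. Without wild-type replicate 1 the sign turned (log2 fold change −0.12, adjusted p = 1.00), so this library decides the direction.

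Pnma2, whose protein assembles into capsids, was spread more widely in wild type than in the controls. Its levels were 5.52, 4.86 and 1.69 CPM in wild type and 2.22, 3.29 and 3.01 CPM in the controls. Wild-type replicate 3 was the lowest of the 6 libraries and the other wild-type libraries the highest. The fit gave 1.35-fold with an interval of 0.73 to 2.49 (edgeR adjusted p = 1.00), wide enough to include a 2-fold difference. With 1 library left out the log2 fold change, 0.43 with all libraries, ran from 0.19 without wild-type replicate 1 and 0.22 without wild-type replicate 2 to 0.82 without wild-type replicate 3. Dpysl2, which overlaps Pnma2, averaged 17.1 ± 1.91 CPM in wild type, against 16.3 ± 3.53 CPM in the controls (SD, n = 3 each).

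Pnma5, a member on the X chromosome, was even in wild type and lowest in the double knockout. Its 8, 16 and 14 counts in wild type are 2.10, 2.05 and 2.15 CPM. It had 5, 13 and 1 counts in the controls, or 1.59, 1.86 and 0.334 CPM. The groups did not overlap, at 1.50-fold in the fit (interval 0.734 to 3.07, edgeR adjusted p = 1.00). Without the double knockout the log2 fold change came to 0.26 ± 0.53 (standard error, edgeR adjusted p = 0.999), and with all libraries to 0.59 ± 0.50. Zfp185, within 5 kb of Pnma5, averaged 5.42 ± 1.42 CPM in wild type, against 6.50 ± 0.46 CPM in the controls (SD, n = 3 each).

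Ccdc8 had a fitted value near 0 whose sign varied with the libraries and the scaling. Its levels were 2.10, 3.97 and 3.53 CPM in wild type and 1.59, 3.71 and 6.02 CPM in the controls. The highest and the lowest of the 6 libraries were both controls. The fit gave a log2 fold change of −0.18 (standard error 0.42, edgeR adjusted p = 1.00) and, without the double knockout, 0.20 (adjusted p = 0.999). It was 7.91e-04 without wild-type replicate 1 and 0.20 without scaling factors.

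**Figure D3:**
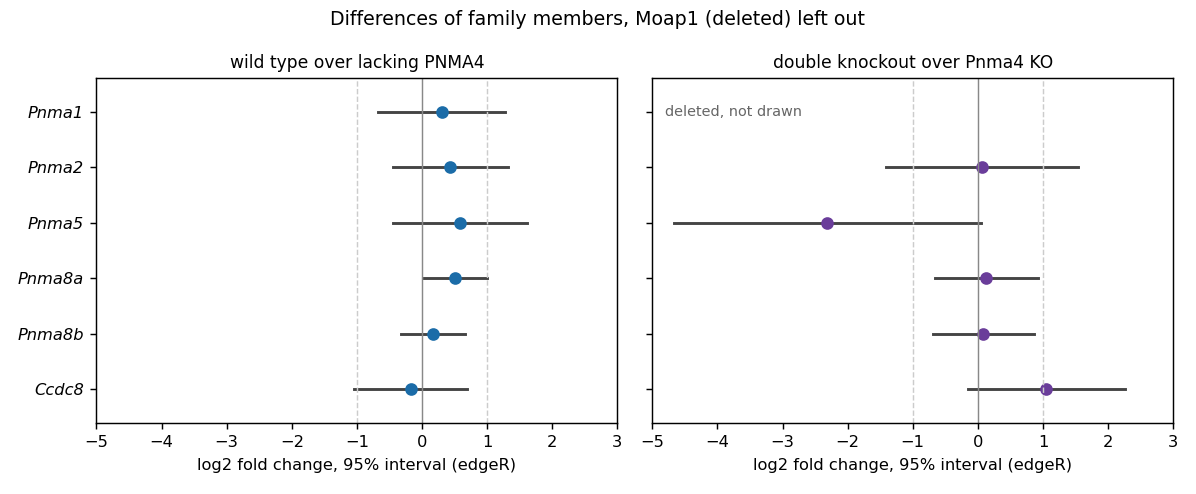
Log2 fold change (points) and 95% interval (bars) from edgeR for family members in wild type over lacking PNMA4 (left) and double knockout over Pnma4 knockout (right), with dashed lines at a 2-fold difference. Moap1 is not drawn, nor is Pnma1 on the right. Of the 6 members drawn on the left, Pnma8a has an interval clear of 0, from 0.02 to 1.00, and the other intervals include 0, while on the right each interval drawn includes 0.

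Between the double knockout and the Pnma4 knockouts, 1 library against 2, Pnma1 alone of the family passed, where 0.0746% of genes did (10 of 13413), 0.0373% in each direction. The call of Pnma1 is fixed by its deletion in the double knockout and says nothing about the other members. The spread in this fit came from the other genotypes, and the single library was assumed to vary like them. Pnma8a and Pnma8b stood at 1.09-fold and 1.06-fold in the double knockout, with intervals of 0.634 to 1.89 and 0.618 to 1.81 (edgeR adjusted p = 1.00 for each). Pnma2 was at 1.05-fold with the wide interval of 0.378 to 2.90.

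The remaining members lay farther from 0 without passing. Ccdc8 had 18 counts in the double knockout and 5 and 26 in the Pnma4 knockouts, a fold of 2.07 (95% interval 0.90 to 4.77, edgeR adjusted p = 0.871). The ratio of its counts, scaled to library size, was 1.97 with an exact counting interval of 1.04 to 3.64, which covers counting error only. The fitted fold was 1.61 without Pnma4 knockout replicate 1 and 3.68 without replicate 2, each a comparison of 1 library with 1. Without scaling factors it was 1.22. The Leydig and Sertoli cell marker sums given above were also highest in that library, and their part in the value was not tested. Pnma5 had 1 count there and 5 and 13 in the Pnma4 knockouts. Its scaled count ratio was 0.189 (exact counting interval 0.00453 to 1.19), and the fitted fold was 0.201 (edgeR adjusted p = 0.819), or 0.123 without scaling factors (adjusted p = 0.116). Without scaling factors Pnma2, Pnma8a and Pnma8b turned negative (log2 fold changes −0.70, −0.63 and −0.67), while the median of all genes in that setting was −0.76.

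Further PNMA genes had few reads. Of 5 further PNMA genes looked up, 3 were in the table and none passed the filter. Zcchc18 gave 4, 10 and 13 counts in wild-type libraries, against 5, 8 and 9 in controls, and Zcchc12 gave 7, 6 and 5, against 4, 3 and 2. Pnma3, which lies 25.1 kb from Pnma5, had 1 count in the 6 libraries. Pnma8c, which is not among those 5 and was named after its counts were seen, passed the filter and averaged 3.74 ± 0.704 CPM in wild type, against 3.07 ± 0.928 CPM in the controls (SD, n = 3 each, edgeR adjusted p = 1.00).

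Genes linked to the members by known partnership also did not pass. Of 10 partners of MOAP1 in apoptosis and protein turnover, 8 were tested and 0 passed in either direction, with log2 fold changes from −0.38 to 0.22. Bcl2l1, which encodes the survival factor BCL-XL, averaged 89.5 ± 13.5 CPM in wild type, against 82.6 ± 9.90 CPM in the controls (SD, n = 3 each). Bax itself gave 12, 6 and 9 counts in wild-type libraries, against 3, 5 and 7 in controls, and was below the filter. Of the genes around CCDC8 in the 3M complex and its ligase, 5 were tested and 0 passed, from −0.41 for Skp1 to 0.12 for the scaffold Cul7. Obsl1, the third subunit of 3M, averaged 20.9 ± 2.79 CPM in wild type, against 20.5 ± 2.33 CPM in the controls (SD, n = 3 each). Of the same list, Skp1 averaged 51.3 ± 16.7 CPM in wild type, against 68.3 ± 10.8 CPM in the controls, and Fbxw8 31.6 ± 5.32 CPM, against 34.2 ± 1.55 CPM. Of 15 other gag-derived genes, 4 were tested and 0 passed, with log2 fold changes from 0.09 to 0.92. Peg10, a gene needed in the placenta, averaged 152 ± 23.9 CPM in wild type, against 140 ± 13.6 CPM in the controls, and Arc, a synaptic gene, 139 ± 43.7 CPM, against 122 ± 9.51 CPM (SD, n = 3 each).

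Genes with a pattern across the 6 libraries like that of a deleted member were found by the mean absolute difference of log2 CPM, each gene centred on its own mean. As these same counts picked the genes, their differences, zeros and adjusted p values follow in part from that choice and are not separate support. The nearest to Moap1 were Rps6ka4 (0.636), Aldh3a1 (0.743) and Or14j9 (0.765). Rps6ka4, which encodes the kinase MSK2, gave 78, 159 and 73 counts in wild-type libraries, against 19, 14 and 8 in controls (edgeR adjusted p = 0.00218), so unlike Moap1 it kept reads in each control. Aldh3a1, an aldehyde dehydrogenase gene, gave 9, 24 and 14 counts in wild-type libraries, against 3, 1 and 2 in controls (adjusted p = 0.602). Or14j9, an olfactory receptor gene, gave 14, 38 and 41 counts in wild-type libraries, against 2, 23 and 3 in controls (adjusted p = 1.00). The nearest to Pnma1 were the noncoding genes Gm35533 (0.432) and Gm29895 (0.644) and the predicted gene Gm13301 (0.631), all with 0 counts in the double knockout. Gm35533 had 49 and 187 counts in the Pnma4 knockouts and 51, 93 and 198 in wild type. It lies on chromosome 10, from 100129868 to 100144136, and so is not a neighbour of Pnma1.

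**Figure D4:**
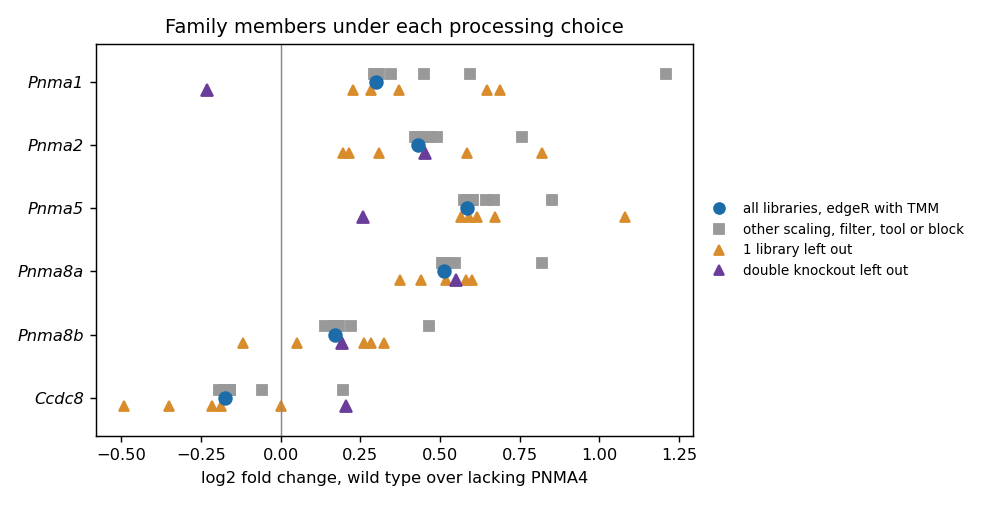
Log2 fold change of wild type over lacking PNMA4 (horizontal axis) for 6 members under every processing choice: all libraries (circles), other scaling, filter, tool or block (squares) and 1 library left out (triangles). Pnma2, Pnma5 and Pnma8a stay above 0 in each of the 14 alternatives, while Pnma1, Pnma8b and Ccdc8 cross it, Pnma1 only without the double knockout.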

How the data were processed

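RNA of PNMA4 immunoprecipitates was sequenced from 6 testis lysates, 3 wild type and 3 lacking PNMA4. The authors deposited 1 table of raw counts per Ensembl gene, which was not rescaled. The tools STAR 2.5.2b, bcl2fastq 2.20, featureCounts and DESeq2 and the build GRCm38 are listed, without roles, per the submitters' processing notes. How strand and multi-gene reads were handled, and which annotation was used, is not given in the sources used here.

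Over all genes, edgeR 4.0.16 (R 4.3.3) tested the counts by quasi-likelihood (filterByExpr with a minimum count of 10, TMM, Benjamini-Hochberg adjustment at 0.05). CPM used the library size of genes past the filter times its TMM factor. Standard errors were derived from the F statistic (absolute log2 fold change over its square root), and intervals are at 95%. Floors are 3 counts over the combined group, or over a single library, and cover counting error only. A second fit had 3 genotypes. In 5 simulations of 13413 genes with 200 changed, for wild type over lacking PNMA4, 93.8% of 4-fold and 47.3% of 2-fold changes were recovered. On average 9.4 unchanged genes were called. The simulations drew all libraries of a group from the same means and took changed genes at any level. They therefore do not give the recovery for members at a few CPM, or with a library like the double knockout. DESeq2 1.42.0, limma 3.58.1 and other scalings and filters were alternatives.

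All 7 members, neighbours within 5 kb, the 2 genes of each partner list with the highest CPM or those past the threshold, and the 3 genes most like Moap1 and Pnma1 were named by rule, except 1 gene that is not reported here. Obsl1, Cul7, Bax, Zcchc12, Zcchc18, Pnma3, Pnma8c and Gon7 were named after their values were seen. The members and lists were chosen with earlier results of these data known. Chi-square per gene was at least 6.28 between any libraries, so none repeats another. Transcript lengths were not used here, so the order of genes by CPM, used only in the naming rule, is not one of levels per length.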

Additional observations from a re-analysis of the deposited data

How the results depend on the processing

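The call of Moap1 was kept in 12 of 14 alternatives (edgeR, DESeq2 and limma-voom adjusted p from 2.15e-07 to 0.0349). Without wild-type replicate 2 or 3 Moap1 was below the filter and not tested, so with 1 library left out the family count ran from 0 to 1. Pnma1 in the double knockout passed in all 12 alternatives (adjusted p up to 0.0351). Of members not called, Pnma2, Pnma5 and Pnma8a kept their direction in wild type over lacking PNMA4. The log2 fold change of Ccdc8 turned to 0.20 without scaling factors and without the double knockout, and to 7.91e-04 without wild-type replicate 1 (range −0.49 to 0.20 with 1 library left out). That of Pnma8b turned to −0.12 without wild-type replicate 1 (range to 0.32), and that of Pnma1 to −0.23 without the double knockout (range to 0.69). Between double knockout and Pnma4 knockout, no scaling factors turned Pnma2 to −0.70, Pnma8a to −0.63 and Pnma8b to −0.67, with the median of all genes at −0.76. Without replicate 1 of the Pnma4 knockouts Pnma2 was −0.13 (range to 0.41), and without replicate 2 Pnma8a was −0.12 (range to 0.33) and Pnma8b −0.15 (range to 0.28). The cause of these turns was not tested.

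Over all genes, 31 passed with no filter in wild type over lacking PNMA4, against 8, and 8 to 18 with 1 library left out (18 without the double knockout). In double knockout over Pnma4 knockout, 10 passed, with 201 without scaling factors, 31 with no filter, 16 in DESeq2, 70 in limma-voom and 10 to 35 with 1 library left out (22 without wild-type replicate 2, 35 without wild-type replicate 3 and 18 without Pnma4 knockout replicate 1). With the replicate block, 7 genes passed, Moap1 among them (log2 fold change 7.05, adjusted p = 0.00615), and no member changed its call. Deviations of same-numbered libraries from their group means correlated at 0.04, −0.06 and 0.08. Differently numbered libraries were not set beside these, so whether replicate numbers pair the libraries was not tested. No paired analysis was possible for the double knockout, which is 1 library. Members at a few CPM, Moap1, Pnma2, Pnma5 and Ccdc8, are limited by depth. The Moap1 row may also lack reads assigned to Gm20604, whose span holds that of Moap1.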
